A study of Mus musculus with 87 samples.

Results

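The tissue described is the brain of mice shortly before birth, at the stage labelled E18.5, counted in embryonic days. It is held by 2 libraries labelled pWT, out of 87 samples in the series. They were set against 8 pWT libraries of heart, kidney, liver and lung, 2 of each organ, and the 4 organs were weighted equally. These libraries and the brain libraries were grouped here as batch 1, and their titles name no batch. The series concerns semi-cloned mice, which come from oocytes injected with an androgenetic haploid stem cell, a cell with a paternal genome only, instead of a sperm. The brain and the same organs labelled pTKO, 10 libraries of that batch, gave the same contrast in libraries that the pWT comparison did not use. The haploid cells of the series are labelled WT, TKO and STOP for their Dnmt genotype, Dnmt genes encoding the enzymes that methylate DNA. What the prefix p stands for, the strain, the dissected brain regions and the number of animals are not given in the sources used here. Nothing says that the 2 libraries of an organ came from different animals, so the p-values measure the spread between these libraries, which may be technical.

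Late in gestation most cortical neurons of the mouse have been born and are growing axons, while synapses, astrocytes and myelin are still immature. Neurons share a large set of genes for microtubules, axon growth, transmitter release, receptors and ion channels that few other organs use. In cells outside the nervous system many of these genes are held silent by REST, a repressor that binds the RE1 element in DNA and recruits histone-modifying enzymes. In bulk RNA, fewer cells of a type and less RNA per cell cannot be told apart.

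The values were counts of reads per gene, in 10.7 and 12.6 M counts for the brain libraries and 19.0 to 26.1 M for the other pWT libraries. Levels are given as CPM, a gene's counts per M (mega) counts of the library. The 2 brain libraries resembled each other more than those of most organs: over genes of at least 2 CPM, the SD of the log2 ratio of library 1 to library 2 was 0.26 in brain, 0.58 in heart, 0.76 in kidney, 1.06 in liver and 0.25 in lung. Haemoglobin genes, a measure of blood, took 0.149% and 0.125% of the brain counts, against 0.235% to 7.37% in the other organs. Summed markers of other organs were far below their own organ: the hepatocyte list had 26.6 and 23.5 CPM in brain, against a mean of 223902 CPM in liver, the cardiomyocyte list 114 and 106 CPM, against 84739 CPM in heart, the kidney epithelial list 129 and 116 CPM, against 7174 CPM in kidney, and the lung epithelial list 260 and 258 CPM, against 24368 CPM in lung. Single members were well above 0 in brain, among them Abca3 of the lung list, with 174 and 173 CPM in brain, against 786 and 879 CPM in lung. The brain libraries differed in Hox genes, which pattern the hindbrain and the trunk and were looked at after their values were seen. Summed over 39 Hox genes the level was 32.2 CPM in brain library 1 and 1.98 CPM in brain library 2, and all 10 Hox genes with at least 10 counts in either were higher in library 1. Hoxb3 had 8.87 and 0.238 CPM and Hoxd3 had 6.35 and 0.0792 CPM in these libraries, and the pTKO brain libraries held 89.6 and 14.95 CPM of Hox genes. The part of the dissection in this difference was not tested.

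The test set brain against the mean of the organs' log2 levels. Of 18204 genes tested, 5986 were higher in brain than this mean of the 4 organs (32.9% of those tested) and 6310 were lower (34.7%), at an adjusted p under 0.05 in edgeR's quasi-likelihood test with Benjamini-Hochberg adjustment. Of these, 5780 higher and 6295 lower genes also lay on that side of the organs' arithmetic mean CPM. A difference of at least 4-fold was fitted for 3309 of the higher genes (18.2%) and 2701 of the lower genes (14.8%). All libraries of brain lay above all 8 others for 5196 genes (28.5%) and below all 8 for 2892 genes (15.9%). As a gene that is nearly silent in 1 organ can carry the mean, brain was also compared with each organ: 2550 genes were higher than in every organ (14%) and 2415 were lower than in every organ (13.3%). The count of lower genes was 1328 without brain library 1 and 1362 without brain library 2, fits in which the lone brain library is assumed to vary like the other organs, and 1574 with library totals alone. The split between directions depended on scaling, since 48.7% of the called genes were higher with TMM factors, 53.6% with median-of-ratios factors, 51.7% with DESeq2 and 58.9% with library totals alone. The median log2 fold change of all genes was -0.09 with TMM factors, and 0.06, 0.06 and 0.25 with those alternatives.

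The 4 single-organ comparisons share the brain libraries and the pooled spread, so their counts stand side by side only. Against heart 11816 genes were called (64.9%; 5641 higher, 6175 lower), against kidney 10600 (58.2%; 4755 higher, 5845 lower), against liver 12701 (69.8%; 6170 higher, 6531 lower) and against lung 10647 (58.5%; 5058 higher, 5589 lower). The 2550 genes above every organ took 36.2% of all counts in each brain library. They took 4.69% to 4.78% in heart, 7.23% to 7.52% in kidney, 2.24% to 2.37% in liver and 6.15% to 6.33% in lung. The organ with the next highest level was kidney for 1376 of them, lung for 667, heart for 426 and liver for 81.

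The 12 genes with the largest fitted differences included transcription factors, glutamate and glycine receptors and long RNAs. Myt1l, a zinc finger factor that keeps neurons from adopting other fates (chromosome 12, 29528384 to 29923213, + strand of mm10), had 414 and 383 CPM in the brain libraries. The other organs held 5 counts in all, with 0.0953 and 0 CPM in heart, 0.0814 and 0.0384 CPM in lung and 0 in kidney and liver. Brain was 14811-fold above the mean of the organs, with no overlap between the groups. Neurod6 and Neurod2, basic helix-loop-helix factors of cortical excitatory neurons, followed: Neurod6 had 272 and 319 CPM in brain, against 0.286 and 0.0526 CPM in heart and 0 in the other 6 libraries. Neurod2 had 152 and 170 CPM in brain and 1 count outside it, a ratio of 29732 with a 95% counting interval of 5333 to 1174648. Neurod1, of the same family, had 43.5 and 58.5 CPM in brain and 0 counts in the other 8 libraries, so brain was at least 3125-fold higher, taking 3 counts over those libraries as the floor.

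The RNA host of miR-124, Mir124a-1hg, had 314 and 303 CPM in brain and 8 counts elsewhere; miR-124 is the most abundant neuronal microRNA and represses many genes of other tissues. Sez6, a membrane protein of dendrites (chromosome 11, 77930800 to 77979048, + strand), had 493 and 468 CPM in brain. In the other organs it had 0.143 and 0.0526 CPM in heart, 0 and 0.0428 CPM in kidney, 0 and 0.0819 CPM in liver, and 0.0407 and 0.0768 CPM in lung. Its fitted log2 fold change was 12.74 ± 0.31 (SE; adjusted p = 1.61e-07, edgeR), and no library of another organ came near the brain values. Gria2, the AMPA receptor subunit that limits calcium entry, had 715 and 713 CPM in brain, against 1.30 CPM or less in every other library. Grm5, a metabotropic glutamate receptor, was 8044-fold above the mean of the organs, which rested on 4 counts in all, so this fold is imprecise. Zic1, a factor of the cerebellum and septum, was 3055-fold above that mean, and Soga3 3602-fold. Dlx6os1, an RNA antisense to the interneuron gene Dlx6, had 87.8 and 64.0 CPM in brain, and without stated strand handling it cannot be told apart from Dlx6. Glra2, the fetal glycine receptor subunit, had 80.5 and 81.2 CPM in brain, a ratio of 4957 (95% counting interval 1693 to 24057).

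**Figure D1:**
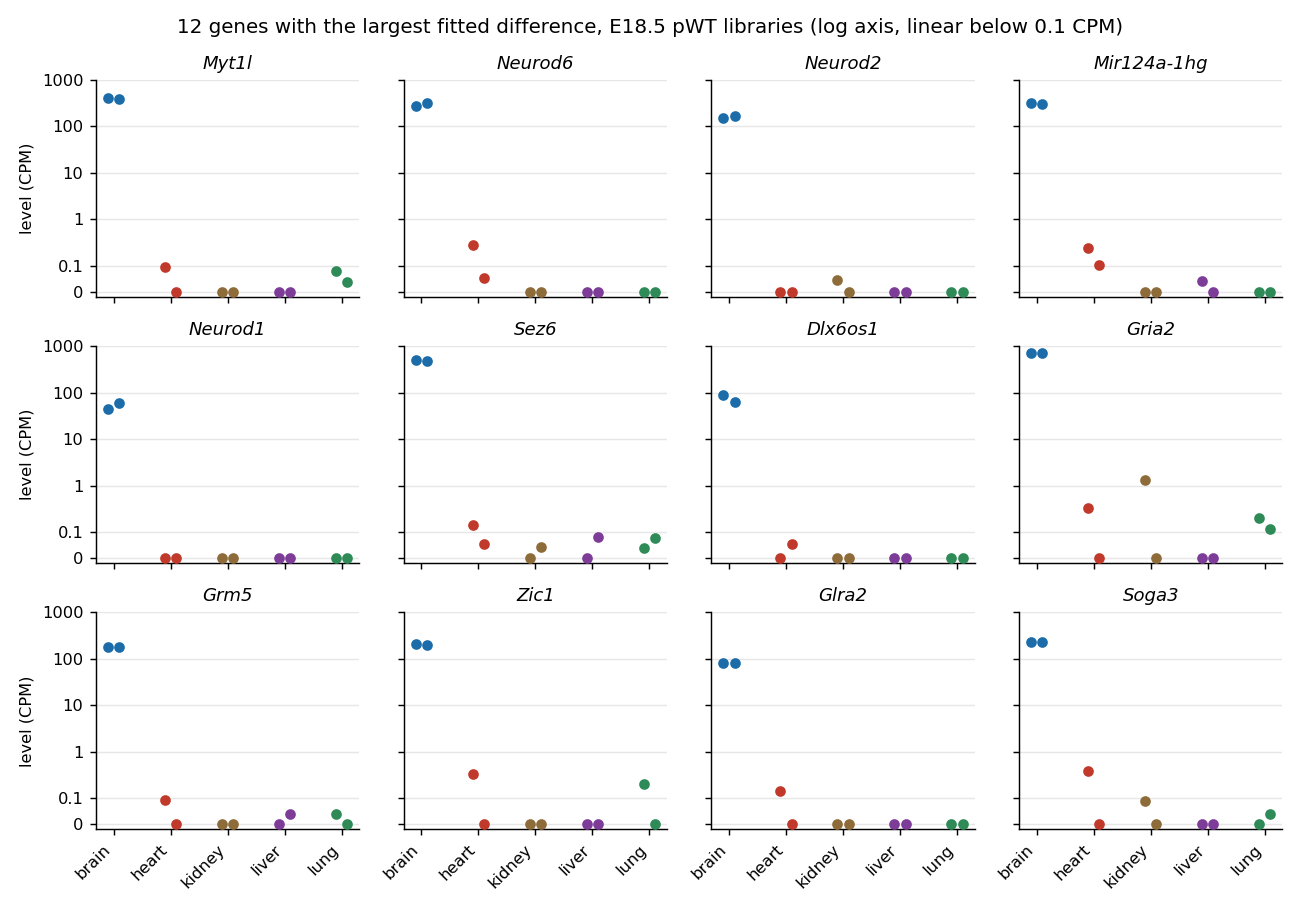
Level in CPM (vertical axis, log scale, linear below 0.1) in each pWT library of brain, heart, kidney, liver and lung (horizontal axis) for the 12 genes with the largest fitted difference; each point is 1 library. Brain points lie at 43.5 CPM or above in all 12 panels, and points of the other organs lie at 1.30 CPM or below.

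Of 8663 tested genes with at least 20 CPM in brain, 24 had at most 3 counts in the 8 other libraries together. Besides Neurod1, 3 had none. Tfap2d, an AP-2 transcription factor, had 35.8 and 29.9 CPM in brain, Nhlh2, a helix-loop-helix factor of the hypothalamus, had 27.0 and 30.0 CPM, and Gpr26, an orphan receptor, had 26.9 and 21.7 CPM. These genes were therefore seen in brain and in no other sampled organ at this depth.

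The most abundant gene called higher was Tuba1a, the α-tubulin of newborn neurons (chromosome 15, 98949837 to 98953703, - strand). It had 6755 and 7243 CPM in brain, against 692 and 352 CPM in heart, 485 and 347 CPM in kidney, 85.6 and 141 CPM in liver, and 415 and 438 CPM in lung. Map1b, which stabilises axonal microtubules (chromosome 13, 99421446 to 99516540, - strand), had 4453 and 4195 CPM in brain, against at most 58.7 CPM in any other library, with a log2 fold change of 7.27 ± 0.15 (SE). Meg3, a maternally expressed long noncoding RNA, had 4949 and 4434 CPM in brain, against 61.0 to 403 CPM in the other libraries, and here the organs' own levels were far from 0. The other 7 of the 10 most abundant were Tubb2b (2791 and 3076 CPM in brain), Tubb5 (2590 and 2800), Dpysl3 (2411 and 2510), Mapt (2216 and 2397), Nnat (2066 and 2511), Map2 (2051 and 2000) and Tubb3 (1933 and 2095). Their fitted log2 fold changes ran between 1.17 ± 0.19 for Tubb5, a β-tubulin of dividing cells as well as neurons, and 10.74 ± 0.48 for Tubb3, the neuronal β-tubulin. Per kilobase of exon, leaving out predicted and microRNA entries, the highest of the called genes were Tuba1a (3882 CPM per kb), Snurf (2102), Tubb2b (1279), Nnat (1251) and Tubb3 (1078).

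REST itself was lower in brain. Rest (chromosome 5, 77265491 to 77286432, + strand) had 12.9 and 10.1 CPM in brain, against 20.5 and 21.3 CPM in heart, 51.1 and 44.7 CPM in kidney, 9.65 and 6.47 CPM in liver, and 27.0 and 29.4 CPM in lung. Its log2 fold change was -1.27 ± 0.19 (SE; adjusted p = 0.00055, edgeR). In these CPM, which are scaled by library totals, liver lay below brain. The fit also divided the levels by TMM factors, 1.22 and 1.20 in brain and 0.630 and 0.595 in liver. On that scale liver lay above brain, so the order of these organs depended on scaling. Of the 14 genes of the REST repressor complex, 4 were higher (Rcor2, Hdac2, Kdm1a and Ehmt2), or 28.6%, near the 32.9% of all tested genes. Another 7 were lower, beside 34.7% of all tested genes, and 3 did not pass. Rcor2 is a corepressor of neural progenitors, and the lower members included its relative Rcor1 and the small phosphatases Ctdsp1, Ctdsp2 and Ctdspl, which REST recruits. Ctdsp1 had 30.2 and 28.1 CPM in brain and a log2 fold change of -2.97. The histone deacetylases moved in opposite directions: Hdac2 had 225 and 241 CPM in brain and a log2 fold change of 1.39, and Hdac1 had 48.3 and 38.4 CPM and a log2 fold change of -1.36. The list's median log2 fold change was -0.25, and the median of its log2 ratios of mean CPM was 0.03, of the other sign.

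The RE1 element was searched in promoters of RefSeq (build GRCm38.p6), 250 bases before to 50 after the gene's start, as its parts CAGCACC and GGACAG with 2 bases between them, on either strand. Both parts stood in the promoters of 8 of 13978 tested genes that had a promoter in that table (0.0572%), and in 9 of all 18719 matched promoters (0.0481%). All 8 were called higher in brain, out of 4531 higher genes with a promoter (0.177%), with 0 of 4923 lower genes and 0 of 4524 genes not called. Of 1907 genes above every organ, 5 held it (0.262%). With the inner letters alone, GCACC and GGAC with the same gap, matches stood in 39 of the higher genes (0.861%), 26 of the lower genes (0.528%) and 21 of the genes not called (0.464%), and in 86 of all tested (0.615%). The windows of 29 bases show each match with its flanks; the letters of the 2 parts are alike because the search fixed them. Capitals mark the element, letters read 5′ to 3′ on the gene's own strand, and where capitals open with CTGTCC the element lies on the opposite strand.
Sptbn4 (chr7:27396275-27396303, - strand): ccgggaaCTGTCCGTGGTGCTGgagccgc
Ogdhl (chr14:32321909-32321937, + strand): gggaggtCAGCACCTCGGACAGcgagggc
Osbp2 (chr11:3774786-3774814, - strand): ctggccgCTGTCCGCGGTGCTGaagcggt
Lca5 (chr9:83441283-83441311, - strand): tttcggtCTGTCCTGGGTGCTGggctccg
Ttc9b (chr7:27653935-27653963, + strand): cggcgcgCTGTCCCCGGTGCTGatgctca
Fbll1 (chr11:35799051-35799079, - strand): gaggtagCTGTCCCTGGTGCTGactggac
Fam163b (chr2:27142558-27142586, - strand): ccagcgtCAGCACCAGGGACAGttcctcg
Hrh3 (chr2:180104569-180104597, - strand): cgcggcgCTGTCCGTGGTGCTGcccgcgc
The element began 98 bases before the start in Sptbn4, and the 250 bases upstream of that start (chr7:27396199-27396448, - strand of GRCm38.p6) show it in its place.
Sptbn4 upstream: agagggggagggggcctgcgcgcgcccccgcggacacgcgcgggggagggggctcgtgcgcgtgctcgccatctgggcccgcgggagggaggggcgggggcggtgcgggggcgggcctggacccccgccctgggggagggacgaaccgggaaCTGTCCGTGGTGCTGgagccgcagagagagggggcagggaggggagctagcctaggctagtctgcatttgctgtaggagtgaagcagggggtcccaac
Sptbn4, the βIV-spectrin of axon initial segments, had 113 and 112 CPM in brain, against 1.72 and 0.946 CPM in heart, 2.88 and 2.18 CPM in kidney, 0.258 and 0.369 CPM in liver, and 0.610 and 0.576 CPM in lung. Its log2 fold change was 6.62 ± 0.21 (SE), and the brain libraries stood apart from all others. Osbp2, an oxysterol-binding protein, had 41.8 and 48.7 CPM in brain, Ogdhl, a relative of a citric acid cycle subunit, 49.7 and 43.4 CPM, and Lca5, a ciliary protein, 36.8 and 37.1 CPM. Ttc9b had 33.0 and 38.7 CPM, Fbll1 22.5 and 22.8 CPM, Fam163b 20.8 and 21.6 CPM and Hrh3, the presynaptic histamine receptor, 8.03 and 5.63 CPM. Their log2 fold changes ran from 2.38 ± 0.34 for Lca5 to 9.72 for Fbll1. These 8 genes were chosen by the match, after their values were seen, and a match of letters is a description of the promoter, not a measured binding site.

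Gene lists for neuronal functions were counted next, against a background of 32.9% of tested genes higher and a median log2 fold change of -0.09. The members were known to be neuronal, so the counts describe how completely the brain libraries carry each set. All 26 genes of the neuronal cytoskeleton and axon growth were higher, all 26 above every organ, with a median fold of 132 on the ratio of mean CPM. Summed, they reached 28941 and 29496 CPM in brain, against 121 to 838 CPM in the other libraries. Dpysl5, a collapsin response protein of growth cones, had 1202 and 1253 CPM in brain, against 12.95 CPM or less in any other library. Kif1a, the motor that carries synaptic vesicle precursors, had 1331 and 1363 CPM in brain and a log2 fold change of 7.65 ± 0.17 (SE). Nefl and Nefh, subunits of axonal neurofilaments, had 219 and 209 CPM and 18.01 and 15.5 CPM in brain, so the heavy subunit, which appears late, was the lower of these also per kilobase of exon (4.19 CPM per kb, against 63.4 for Nefl).

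The machinery of transmitter release was as complete. All 30 presynaptic genes were higher and 29 were above every organ, with a median fold of 73.1 and sums of 7166 and 7111 CPM in brain, against 143 to 411 CPM elsewhere. Snap25, a SNARE protein of the vesicle fusion complex, had 204 and 217 CPM in brain, against 0.143 and 0.0526 CPM in heart, 0.270 and 0.214 CPM in kidney, 0.258 and 0.246 CPM in liver, and 0.366 and 0.269 CPM in lung. The groups did not overlap, and the log2 fold change was 9.59 ± 0.17 (SE; adjusted p = 1.09e-07, edgeR). Cplx1, which clamps the fusion complex, had 120 and 115 CPM in brain and a log2 fold change of 8.91 ± 0.16 (SE), and Bsn, a scaffold of the active zone, had 293 and 257 CPM and 6.62 ± 0.19. A smaller difference was found for Vamp2, the vesicle SNARE, with 393 and 438 CPM in brain and a log2 fold change of 2.39 ± 0.09.

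On the receiving side, 25 of 26 postsynaptic and synaptic adhesion genes were higher and 20 were above every organ, with a median fold of 32.2. Their sums were 3961 and 3888 CPM in brain, against 131 to 582 CPM in the other libraries. Shank1, a scaffold of excitatory synapses, had 450 and 403 CPM in brain and a log2 fold change of 7.82 ± 0.25 (SE), Dlg4, which encodes PSD-95, had 419 and 415 CPM and 4.42 ± 0.11, and Camk2b, a calcium-dependent kinase, had 377 and 384 CPM and 5.67 ± 0.10. Shank3, the exception, had 100.7 and 99.1 CPM in brain, against 76.7 and 112 CPM in heart, 64.4 and 98.6 CPM in kidney, 12.1 and 16.8 CPM in liver, and 127 and 134 CPM in lung. Its log2 fold change of 0.35 ± 0.22 (SE) did not pass (adjusted p = 0.19, edgeR), and its brain values lay within the range of the other organs.

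All 24 glutamate receptor genes were higher, 22 of them above every organ, with a median fold of 99.4 and sums of 3029 and 2943 CPM in brain, against 12.9 to 150 CPM elsewhere. Grin2b, the NMDA receptor subunit of the fetal brain, had 511 and 455 CPM in brain, against 0.366 CPM or less in any other library, a fold of 3395. Of the GABA and glycine receptor genes, all 18 tested were higher and 17 were above every organ, with a median fold of 232 and sums of 1705 and 1730 CPM in brain, against 2.99 to 55.1 CPM elsewhere. Gabra5, an extrasynaptic GABA receptor subunit, had 64.6 and 59.6 CPM, and Gabbr2, of the metabotropic GABA receptor, had 147 and 151 CPM. Gabra6, the subunit of mature cerebellar granule cells, was too low to be tested.

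Among voltage-gated channels 31 of 33 were higher, 23 above every organ, with a median fold of 16.3 and sums of 3546 and 3358 CPM in brain, against 43.4 to 698 CPM elsewhere. Kcnq3, a subunit of the M-current potassium channel of neurons, had 164 and 159 CPM in brain, with a log2 fold change of 9.49. The 2 remaining channel genes of the list did not pass.

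Of the genes of transmitter synthesis and transport 20 were higher and 4 lower, and 13 were above and 3 below every organ. Gad1 and Gad2, the enzymes that make GABA, had 177 and 168 CPM and 126 and 119 CPM in brain, and the fold of Gad1 was 1003. Slc17a6, the vesicular glutamate transporter of subcortical and young neurons, had 138 and 132 CPM in brain, against 0.286 CPM or less elsewhere, while Slc17a7, the transporter of mature cortex, had 47.6 and 35.1 CPM in brain, against 5.72 and 3.79 CPM in heart. The lower genes encode enzymes of monoamine and histamine metabolism that other organs also use. Hdc, which makes histamine, had 1.96 and 1.11 CPM in brain, against 264 and 247 CPM in kidney and 39.8 and 91.8 CPM in lung (log2 fold change -4.93 ± 0.68, SE). Ddc, which makes dopamine and serotonin, had 5.51 and 7.85 CPM in brain, against 230 and 252 CPM in heart. Maob, which degrades monoamines, had a log2 fold change of -2.34.

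Of 25 neuropeptide and granule genes 17 were higher, 10 of them above every organ, 4 did not pass (Pomc, Pmch, Gnrh1 and Agrp) and 4 were too low to be tested (Oxt, Hcrt, Vip and Ghrh). Summed, the list reached 518 and 554 CPM in brain, against 2.25 to 316 CPM elsewhere, with kidney the highest of these. Penk and Crh, of the 17, were below the organs by the ratio of mean CPM, at 0.328 and 0.385. Npy, a peptide of interneurons, had 34.1 and 37.5 CPM in brain, and Scg2 and Chgb, granins of dense-core vesicles, had 133 and 145 CPM and 117 and 129 CPM.

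**Figure D2:**
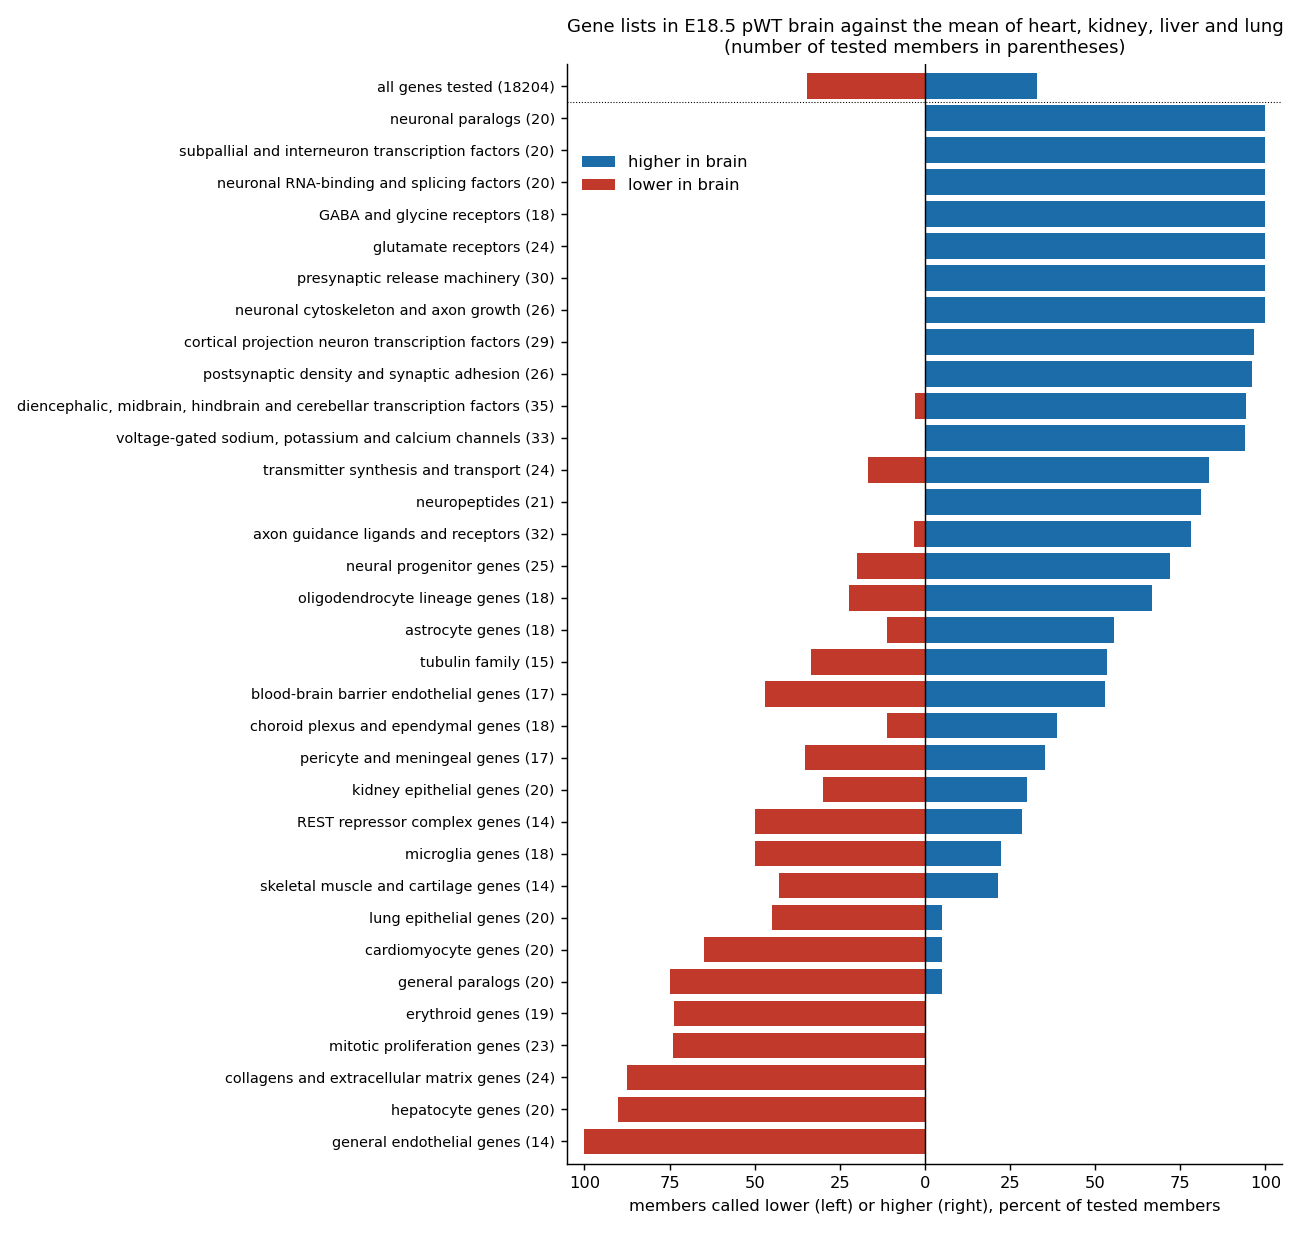
Gene lists (rows, with the number of tested members) and the percent of tested members called higher in pWT brain (right of 0) or lower (left of 0) against the mean of heart, kidney, liver and lung; the top row is all 18204 tested genes. Neuronal lists lie fully or nearly fully to the right, while the general endothelial, collagen, mitotic, hepatocyte and erythroid lists lie mostly to the left and the kidney epithelial list lies evenly on both sides.

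Axon guidance genes, whose products also act in vessels, lung and kidney, were less one-sided: 25 of 32 were higher, 1 was lower and 6 did not pass, and 15 were above every organ, with a median fold of 3.77. Robo1, the Slit receptor, had 303 and 316 CPM in brain (log2 fold change 2.84 ± 0.10, SE), and Epha5, an ephrin receptor of topographic maps, had 165 and 146 CPM (9.95 ± 0.31). Unc5b, a netrin receptor also found on endothelial cells, was lower, with 23.6 and 20.4 CPM in brain, against 152 and 163 CPM in heart, 126 and 129 CPM in kidney, 3.83 and 5.73 CPM in liver, and 97.5 and 85.4 CPM in lung. Ntn1, Slit2, Slit3, Sema4d, Sema5a and Nrp1 did not pass, and without liver library 1 the count of lower genes was 2.

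All 20 neuronal RNA-binding and splicing factors were higher, 18 above every organ, with a median fold of 121 and sums of 5660 and 5712 CPM in brain, against 70.5 to 471 CPM elsewhere. Celf5 had 443 and 428 CPM in brain, Nova2, a splicing regulator of synaptic transcripts, 343 and 345 CPM, and Srrm4, which drives inclusion of neuronal microexons, 199 and 183 CPM with a log2 fold change of 6.10 ± 0.14 (SE).

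Transcription factors of every brain territory listed were present. Of the cortical projection neuron factors 28 of 29 were higher and 22 were above every organ, with a median fold of 35.3. Tbr1, a factor of deep-layer neurons, had 153 and 164 CPM in brain, against 0.191 CPM or less in any other library (log2 fold change 11.19 ± 0.33, SE). Cux1 did not pass. All 20 subpallial and interneuron factors were higher, 16 above every organ, with a median fold of 124. Among them Dlx1 had 147 and 141 CPM in brain (fold 1064).

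Factors of the diencephalon, midbrain, hindbrain and cerebellum gave 33 higher, 1 lower (Gata2, log2 fold change -2.20), 1 that did not pass and 3 too low to test (Pitx3, Fev and Ptf1a); 20 were above every organ. Lhx9, of the thalamus and pretectum, had 68.3 and 68.8 CPM in brain, Otx2, of the forebrain and midbrain, 26.1 and 21.1 CPM, and Barhl1, of cerebellar granule cells, 28.7 and 21.1 CPM. Summed, the list reached 1044 and 1058 CPM in brain, against 29.4 to 838 CPM in the other organs, with kidney the highest of these. By the ratio of mean CPM, 4 of the 33 were below the organs, and so was 1 each of the cortical, subpallial and guidance genes called higher.

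Progenitor and glial lists were mixed, and are set beside 32.9% of all tested genes higher and 34.7% lower. Of the neural progenitor genes 18 were higher, 5 lower, 2 did not pass and Neurog1 was too low to test. Ptprz1, a receptor phosphatase of radial glia, had 720 and 599 CPM in brain, against 4.84 CPM or less in any other library (log2 fold change 9.35 ± 0.23, SE). The lower ones were Vim, Hopx, Btg2, Notch1 and Gas1, which other fetal tissues also use: Hopx had 6.72 and 5.71 CPM in brain, against 437 and 393 CPM in heart and 488 and 446 CPM in lung, and Vim, an intermediate filament of mesenchyme, had 242 and 235 CPM in brain, against 1759 and 1728 CPM in lung. Of 18 astrocyte genes 10 were higher, 2 lower (Apoe and Ndrg2) and 6 did not pass, with a median fold of 1.78. Sparcl1, of the 10, was below the organs by the ratio of mean CPM. Slc1a3 and Slc1a2, the glial glutamate transporters, had 256 and 231 CPM and 197 and 167 CPM in brain, whereas S100b, Aldh1l1 and Gja1 were among those that did not pass, and without liver library 1 the count of lower genes was 4.

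Of the oligodendrocyte lineage genes 12 were higher, 4 lower and 2 did not pass, with a median fold of 3.19, and Opalin, of mature myelin, had 0 counts in brain. Ugt8a, of the 12, was below the organs by the ratio of mean CPM. Olig1, a factor of the precursors, had 45.7 and 43.7 CPM in brain, against 0.572 CPM or less elsewhere (log2 fold change 8.09 ± 0.64, SE), and Bcan, a brain matrix proteoglycan, had 88.0 and 85.0 CPM. Mbp, which encodes a myelin protein and is also transcribed outside oligodendrocytes, had 42.1 and 36.6 CPM in brain, against 39.1 and 38.4 CPM in lung. Pdgfra, a receptor of precursors and of mesenchyme, was among the lower ones at a log2 fold change of -0.41 (adjusted p = 0.039, edgeR), and with lung left out of the organs it was 0.067 (adjusted p = 0.77). Without either brain library, 2 oligodendrocyte genes were lower.

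Many microglia genes are shared by macrophages of other organs. Of the 18 listed, 4 were higher (22.2%, beside 32.9% of all tested genes), 9 lower (beside 34.7%) and 5 did not pass. The higher ones were P2ry12, Sall1, Siglech and Gpr34. Sall1 was below the organs by the ratio of mean CPM, at 0.817. P2ry12, a purine receptor of resting microglia, had 4.57 and 5.15 CPM in brain, against 2.40 and 3.57 CPM in lung and 2.46 and 0.778 CPM in liver, and was not higher than in every organ. The count of lower microglia genes was 3 without brain library 1 and 3 without brain library 2.

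Vessel genes differed between lists. Of 17 blood-brain barrier genes 9 were higher and 8 lower. Foxf2, of the 9, was below the organs by the ratio of mean CPM, at 0.361. Slco1c1, the thyroxine carrier of brain endothelium, had 35.2 and 32.3 CPM in brain, against 0.270 CPM or less elsewhere (log2 fold change 8.11 ± 0.43, SE). All 14 general endothelial genes were lower (background 34.7%), with sums of 350 and 325 CPM in brain, against 443 to 4193 CPM in the other libraries. Plvap, of the diaphragms of leaky capillaries, had 3.08 and 2.22 CPM in brain, against 67.8 and 75.6 CPM in heart, 253 and 256 CPM in kidney, 35.3 and 49.4 CPM in liver, and 189 and 176 CPM in lung (log2 fold change -5.71 ± 0.25, SE). Of 17 pericyte and meningeal genes 6 were higher and 6 lower, near the background of 32.9% and 34.7%, and 5 did not pass; 0 were above and 2 below every organ. Their sums of 743 and 743 CPM in brain lay below those of all other libraries (809 to 3526 CPM), and the median log2 fold change was -0.64. Of the 6 called higher, Foxc1, Foxd1 and Slc6a13 were below the organs by the ratio of mean CPM, at 0.539, 0.710 and 0.582.

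Choroid plexus and ependymal genes gave 7 higher, 2 lower (Aqp1 and Calml4) and 9 that did not pass. The higher ones were 38.9% of the list, near the 32.9% of all tested genes, of which 34.7% were lower. The brain libraries differed in this list, with sums of 862 CPM in library 1 and 554 CPM in library 2. Without brain library 2 the count of lower genes was 1. Ttr, the thyroxine carrier of choroid plexus and liver, had 555 and 316 CPM in brain, against 3407 and 1180 CPM in liver. It was 1 of 4 higher genes of this list that were below the organs by the ratio of mean CPM. Trpm3, a cation channel of the choroid plexus, had 135 and 112 CPM in brain. For the blood-brain barrier and the choroid lists, the median log2 fold change of 0.96 and 0.36 and the median log2 ratio of mean CPM of -0.92 and -1.79 differed in sign.

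Genes of cell division and of the extracellular matrix were lower. None of 23 mitotic genes was higher and 17 were lower, and 0 of 24 collagen and matrix genes were higher and 21 lower. Of all tested genes, 32.9% were higher and 34.7% lower. The median log2 fold changes of the mitotic and the matrix list were -1.83 and -2.51, against -0.09 for all tested genes. Cdc20, an activator of the anaphase complex, had 20.2 and 19.3 CPM in brain, against 175 and 171 CPM in heart, 183 and 162 CPM in kidney, 136 and 156 CPM in liver, and 75.3 and 70.2 CPM in lung (log2 fold change -3.10 ± 0.13, SE). Col14a1, a fibril-associated collagen, had 4.39 and 3.01 CPM in brain, against at least 104.7 CPM in any other library (log2 fold change -5.90).

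Among the 12 genes with the largest fitted differences below the organs was Tcf21, a factor of the mesenchyme of lung and kidney and of the epicardium (chromosome 10, 22817281 to 22820174, - strand). It had 0 counts in both brain libraries. The gene had 49.4 and 44.1 CPM in heart, 187 and 184 CPM in kidney, 8.79 and 3.44 CPM in liver, and 424 and 383 CPM in lung, so brain was at least 1249-fold lower, taking 3 counts over the brain libraries as the floor. Fgg, a fibrinogen chain made by liver, also had 0 counts in brain and was at least 18261-fold lower than the mean of the organs. Alb, the serum albumin gene, had 0 and 0.317 CPM in brain, against 93954 and 55373 CPM in liver. Fabp4, a fatty acid carrier of capillary endothelium and fat, had a mean of 0.0863 CPM in brain. It had 265 and 255 CPM in heart, 194 and 181 CPM in kidney, 28.5 and 38.1 CPM in liver, and 7.36 and 6.68 CPM in lung. The log2 fold change of Fabp4 was -9.63 ± 0.30 (SE, adjusted p = 3.82e-07, edgeR). The 2 counts in brain gave a ratio of brain to the organs of 0.000754, with a 95% counting interval of 9.13e-05 to 0.00273. The other 8 were Hp, Upk3b, Stfa1, Prr15l, Vnn3, Pck1, Hand2 and Apoc2.

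Of the other organs' own lists, 13 of 20 cardiomyocyte, 18 of 20 hepatocyte, 6 of 20 kidney epithelial, 9 of 20 lung epithelial and 14 of 19 erythroid genes were lower in brain, beside 34.7% of all tested genes, and 6 of the kidney genes were higher, beside 32.9%. The kidney list was thus near the background in both directions. Of 14 tested skeletal muscle and cartilage genes 3 were higher (5 without lung library 1) and 6 lower (3 without brain library 2). Genes with 0 counts in both brain libraries were Nkx2-5 and Nppb of the cardiomyocyte list, Fgb, Fgg, Serpina1a and Hnf4a of the hepatocyte list, Cdh16, Aqp2, Umod and Kap of the kidney list, and Sftpd and Scgb3a2 of the lung list. The members higher in brain included Ryr2, the calcium release channel of heart and neurons, with 81.6 and 68.9 CPM in brain, against 589 and 953 CPM in heart and 29.1 and 34.5 CPM in lung. Nkx2-1, a factor of lung and of the ventral forebrain, had 14.5 and 16.5 CPM in brain, against 448 and 452 CPM in lung, 0 and 2.103 CPM in heart, and 0 in kidney and liver. With 1 brain library, the counts of lower genes were 8 and 7 for the cardiomyocyte list, 5 and 4 for the hepatocyte list, and 5 and 4 for the lung list, without brain library 1 and without brain library 2. Leaving out heart library 2 gave 10 hepatocyte and 3 kidney genes, lung library 1 gave 7 hepatocyte genes, and liver library 1 gave 8 cardiomyocyte genes. For Ryr2 and Nkx2-1, a single organ lay far above brain, and their fitted log2 fold changes were 2.56 and 5.18. The ratio of brain to the organs' mean CPM was below 1, at 0.374 for Ryr2 and 0.137 for Nkx2-1. That ratio was also below 1 for 5 of the 6 kidney genes called higher. For Col9a1, called higher in the skeletal muscle and cartilage list, it was 0.815.

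Many proteins exist in a form enriched in neurons and a form used elsewhere, encoded by paralogs. Of 20 such pairs, 15 had the neuron-enriched form higher and the general form lower in brain. All 20 neuron-enriched forms were higher, with a median log2 fold change of 4.78, and of the general forms 15 were lower, 1 was higher (Atp2b1; 2 without liver library 1) and 4 did not pass. Expressed per kilobase of exon, the neuron-enriched form made up a median 81.6% of the pair in brain, against 5.07% in heart, 2.22% in kidney, 1.89% in liver and 3.43% in lung. It held over 50% of the pair in brain for 16 pairs, against 3 in heart, 3 in kidney, 1 in liver and 2 in lung. Its share was highest in brain in 18 pairs. Of the other pairs, the translation factor form Eef1a2 held 6.06% in brain and 14.9% in heart, and the aldolase Aldoc held 98.7% in brain and 99.4% in lung.

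Of the β-tubulins Tubb3 and Tubb6, Tubb3 made up 99.5% of the pair in brain, against 0.695% to 4.93% elsewhere. Actl6b and Actl6a, alternative subunits of the BAF chromatin remodeller, gave 83.6% for Actl6b in brain, against 0% to 0.215%: Actl6b had 147 and 156 CPM in brain (log2 fold change 11.98 ± 0.51, SE) and Actl6a had 27.3 and 27.0 CPM (-1.41). Ptbp2 and Ptbp1, splicing repressors that replace each other when neurons form, gave 52.9% for Ptbp2 in brain, against 0.762% to 5.20%. Ptbp2 had 249.2 and 260 CPM in brain, against 24.5 and 14.3 CPM in heart, 48.9 and 12.1 CPM in kidney, 7.19 and 1.80 CPM in liver, and 23.8 and 27.1 CPM in lung. Ptbp1 had 124 and 111 CPM in brain, against 181 CPM or more in every other library, so this pair was mixed in brain. Eno2, Atp6v1g2 and Atp2b2 held 25.9%, 32.5% and 39.4% of their pairs in brain, under 50%.

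**Figure D3:**
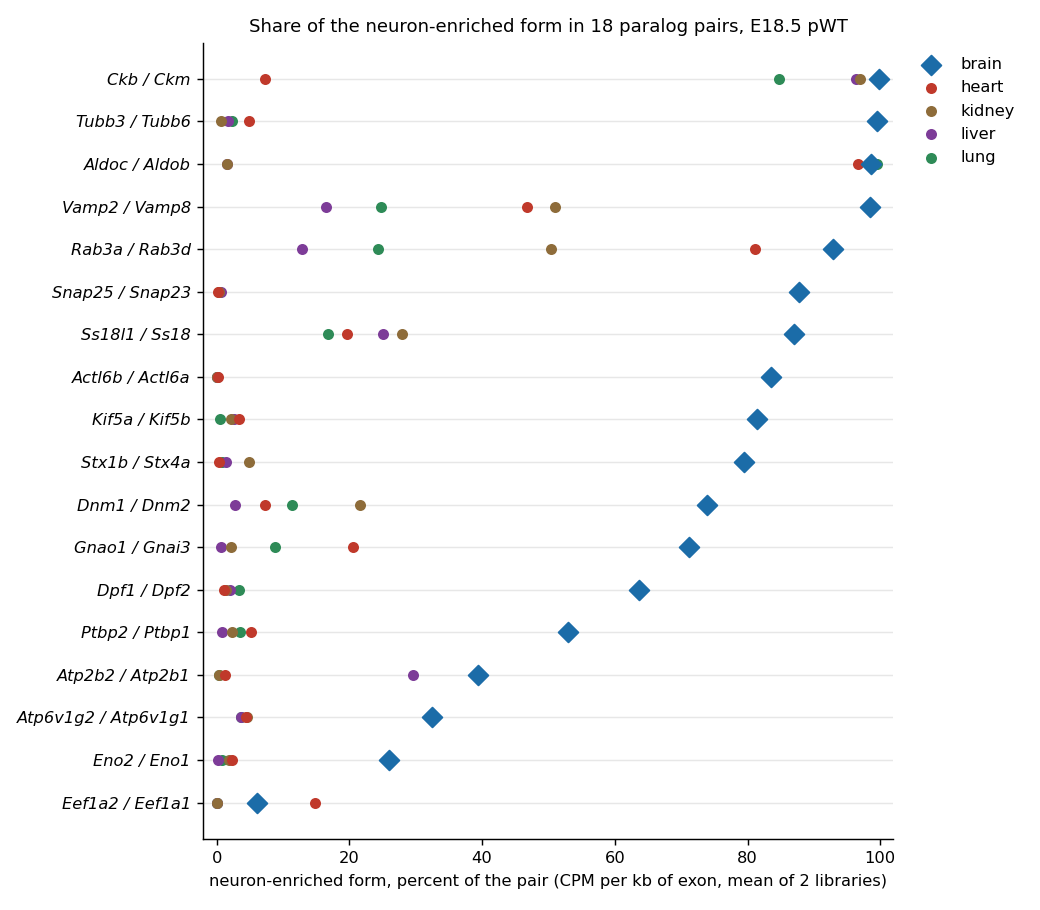
Share of the neuron-enriched form in 18 of the 20 paralog pairs (rows) in percent of the pair's CPM per kb of exon (horizontal axis), mean of 2 pWT libraries per organ; each point is 1 organ. Brain points lie to the right of all other organs in 16 of these 18 pairs, with Eef1a2 and Aldoc as the exceptions.

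The tubulin family showed which isotypes carry this. Of its 15 genes 8 were higher in brain, 5 were lower (Tuba4a, Tuba8, Tubb1, Tubb4b and Tubb6) and 2 did not pass (Tuba1c and Tubg1). Of all tested genes, 32.9% were higher and 34.7% lower. The family took 1.70% and 1.87% of the brain counts, against 0.477% and 0.305% in heart, 0.364% and 0.304% in kidney, 0.213% and 0.244% in liver, and 0.221% and 0.227% in lung. Tubb2b had 2791 and 3076 CPM in brain, against 191 and 106 CPM in heart and lower values in the other organs, down to 3.88 and 3.28 CPM in liver. Tubb4b, a widely used β-tubulin, had 149 and 159 CPM in brain, against 415 and 310 CPM in heart, 342 and 282 CPM in kidney, 372 and 347 CPM in liver, and 346 and 367 CPM in lung, and was lower in brain than in every organ (log2 fold change -1.52 ± 0.16, SE). Tuba1a, Tuba1b and Tuba1c are nearly identical in sequence, and how reads that fit several of them were counted is not stated.

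**Figure D4:**
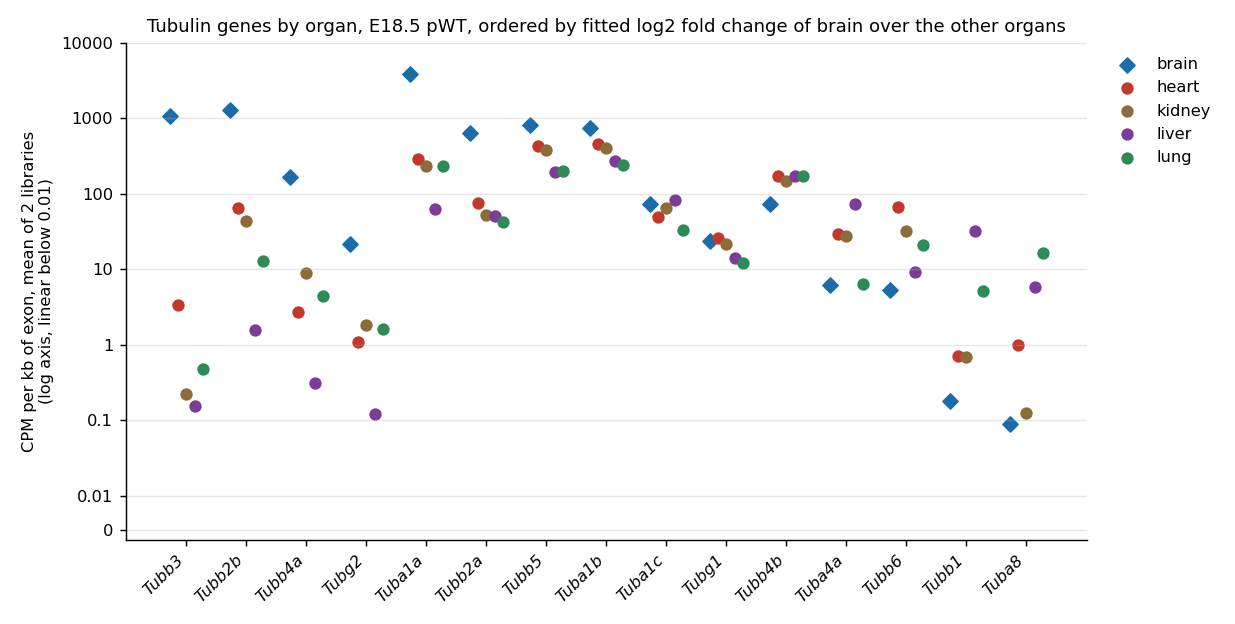
Level in CPM per kb of exon (vertical axis, log scale, linear below 0.01) of the tubulin genes (horizontal axis, in the order of their fitted log2 fold change), mean of 2 pWT libraries per organ, 1 point per organ. Brain points are the highest of the 5 organs for the 8 genes at the left and the lowest for the 5 genes at the right.

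Genes higher in brain were longer than the rest. The median genomic span was 37.5 kb for genes above every organ, 14.9 kb for genes below every organ and 22.0 kb for all tested genes, and 28.2%, 7.10% and 13.5% of them spanned over 100 kb. Of 2584 genes under 5 kb 22.8% were higher and 42.3% lower in brain, and of 502 genes of 320 kb or more 75.9% were higher and 10.4% lower. Exons summed to a median 5.34 kb for genes above every organ, against 4.003 kb for all tested genes, and transcript GC content was 49.96%, against 49.88%. Exon length moved with the call too, and its part in the span difference was not tested. Between the 2 brain libraries the log2 ratio had a Spearman correlation of 0.18 with exon length and 0.00 with GC content, over genes, which are not independent; between the kidney and between the liver libraries that with GC content was -0.53 and -0.51.

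**Figure D5:**
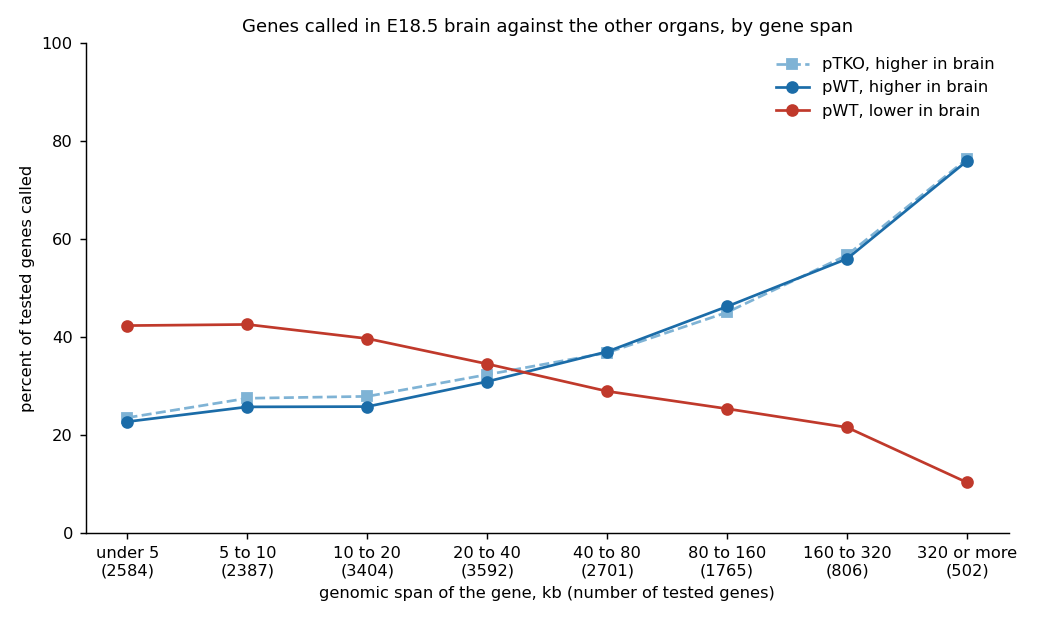
Percent of tested genes called higher or lower in brain (vertical axis) by genomic span in kb (horizontal axis, with the number of tested genes), for higher genes in pTKO and for higher and lower genes in pWT. The share of higher genes climbs to 76.3% in pTKO and 75.9% in pWT in the bin of 320 kb or more, and the share of lower genes drops to 10.4% in pWT.

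In pTKO libraries, 6278 genes were higher in brain than in the mean of the organs (33.9% of 18519 tested) and 6291 were lower (34%), while 2789 were above (15.1%) and 2038 below every organ (11%). Higher in both genotypes were 5402 genes, 86.0% of the pTKO and 90.2% of the pWT genes, and lower in both were 5359, 85.2% of the pTKO and 84.9% of the pWT genes. None was called in opposite directions. Above every organ in both were 2230 genes, 79.96% of the pTKO and 87.5% of the pWT genes. Below every organ in both were 1654, 81.2% of the pTKO and 68.5% of the pWT genes. All 26 cytoskeletal genes were higher in pTKO brain too, and all 23 mitotic genes were lower. Rest had 9.69 and 11.1 CPM in pTKO brain and a log2 fold change of -1.28 ± 0.27 (SE) there. Tubb3 had 2135 and 2072 CPM in pTKO brain, Snap25 246 and 227 CPM and Gad1 170 and 161 CPM, with log2 fold changes of 10.04 ± 1.18, 8.30 ± 0.67 and 7.80 ± 0.59 (SE).

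The difference between brain and the other organs itself differed between pTKO and pWT for 1 of 18806 genes (0.00532%) by edgeR's interaction test. That was Slc15a2, a peptide transporter of kidney, lung and brain (chromosome 16, 36750177 to 36784962, - strand), at a log2 difference of -3.18 (adjusted p = 0.015). At an unadjusted p under 0.05 in the same test the count was 1489 of 18806, a limit that many genes pass with no difference. DESeq2 called 20. The count by edgeR after adjustment was 1 with all libraries. It was 0 without pTKO brain library 2, either pTKO kidney library, pWT brain library 2 or either pWT lung library, and 3 without pWT liver library 1. Slc15a2 had 22.9 and 29.4 CPM in pTKO brain, with a pTKO log2 fold change of -0.20 ± 0.16 (SE), and 21.3 and 17.7 CPM in pWT brain, with a pWT log2 fold change of 2.99 ± 0.33 (SE). The ratio of pWT brain to the mean CPM of the pWT organs was 0.839, of the other sign on a log scale. The means were 6.72 CPM in pTKO heart and 0.0978 CPM in pWT heart, 64.9 CPM in pTKO kidney and 33.5 CPM in pWT kidney, 18.3 CPM in pTKO liver and 0.0646 CPM in pWT liver, and 52.6 CPM in pTKO lung and 59.3 CPM in pWT lung. By ratio, the means of the genotypes lay farthest apart in liver and heart, and this was not tested organ by organ. The genes next in order did not pass: Rsph3b (log2 fold change -0.37 in pTKO and -1.58 in pWT), Steap3 (-2.39 and -3.48), Sigirr (-3.28 and -4.73), Stag3 (1.96 and 3.57) and Epha4 (2.75 and 3.74).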

How the data were processed

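Polyadenylated RNA of E18.5 organs was sequenced as paired 150 bp reads. The labels' protocols name both a poly(A) selection kit and a low-input kit, without assigning libraries to them. The deposited tables hold raw read counts, one value per gene symbol and library, for 25277 symbols, and 0 sample columns were left unmapped. Per the submitters' processing notes, Trim Galore 0.6.6, HISAT2 2.1.0, featureCounts 1.6.4, DESeq2 and mm10 were used; how strand and multi-mapping reads were treated is not stated, which makes values of overlapping or near-identical genes uncertain.

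Genes were kept with filterByExpr by organ (minimum count 10), scaled with TMM factors and tested with edgeR 4.0.16 (quasi-likelihood, R 4.3.3), as brain minus the mean log2 level of the 4 organs, each weighted equally. The 10 pWT libraries, with 10.7 to 26.1 M counts, gave a biological coefficient of variation of 0.304 and 5 residual degrees of freedom. For each gene, 1 estimate of the spread served all 5 organs. The organs' libraries differed unequally, with an SD of the log2 ratio of 0.26 in brain and 1.06 in liver. Benjamini-Hochberg adjustment ran over all genes tested, with calls at an adjusted p under 0.05. Higher or lower than every organ means that the largest of the 4 single-organ p-values passed after adjustment. Standard errors (SE) were taken from the F statistic, as the log2 fold change over its square root. CPM in the text were scaled by library totals, and a fold is the ratio of mean CPM. Fitted log2 fold changes of the 1884 tested genes with an organ at 0 depend on the prior count and are no bounds. Counting intervals and floors (3 counts over a group) cover counting error only, and reads without molecular identifiers are not independent molecules. Gene spans, exon lengths and GC content came from GENCODE M21, which covered 24375 symbols (96.4%).

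The members, gene lists, pairs and tests were chosen with earlier results of these data known. Named genes were the 12 largest differences in each direction with at least 20 CPM and no overlap between brain and the other libraries, the 10 most abundant higher genes, for each list the 6 called members of smallest adjusted p, those called against the list and those at 0 in brain, the pairs and tubulins, Rest, up to 6 interaction genes and the leading genes of other organs. Other genes, among them uncalled list members, the Hox genes and genes with the RE1 element, were named after their values were seen. Alternatives were DESeq2 1.42.0, other scalings, no filter, haemoglobin genes left out, the replicate number as a block, a fit of all 20 libraries, and each organ or library left out. Values of some list members are not reported here.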

Additional observations from a re-analysis of the deposited data

Results flagged for a closer look

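Slc15a2 was the gene whose difference between brain and the other organs differed between the genotypes by a test of that difference, at a log2 value of -3.18, pTKO minus pWT (adjusted p = 0.015, edgeR's interaction test). The brain levels were 22.9 and 29.4 CPM in pTKO, against 21.3 and 17.7 CPM in pWT. The call was not made without pTKO brain library 2, either pTKO kidney library, pWT brain library 2 or either pWT lung library.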

How the results depend on the processing

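The counts of genes higher and lower than the mean of the organs were within 1.5 times of those reported under every alternative except the requirement of at least 4-fold (3309 higher, 2701 lower). With each library left out in turn they ran from 4918 to 6744 and from 4563 to 6683, genes above every organ from 1756 to 2864 and those below every organ from 1328 to 2775; the count below was 1574 with library totals alone. Over the same fits, calls ran from 9307 to 12977 against heart, 7789 to 12022 against kidney, 10607 to 13349 against liver and 8033 to 11910 against lung, and in pTKO from 5090 to 6970 higher and 4857 to 6938 lower. Library totals alone gave 7345 higher and 5132 lower genes in pWT, median-of-ratios factors 6568 and 5677, DESeq2 6501 and 6068. The interaction gave 20 genes with DESeq2 and 0 to 3 with a library left out; the cause was not tested. Over named genes and the alternatives, 6302 of 6472 values kept their direction and side of the threshold, 127 no longer passed, 41 newly passed and 2 reversed: Lrp2 with kidney left out as an organ (1.65, adjusted p = 0.00088, against -0.54, not called) and Pdgfra with lung left out (0.067, against -0.41). Same-numbered libraries deviated together in the 3 pairs among pWT heart, kidney and liver (correlations of 0.47 to 0.64) and not in the pairs with brain or lung (-0.19 to 0.02); in pTKO they ran from -0.33 to 0.38, over 0.1 in 3 of 10 pairs. The numbers were therefore not taken as pairing all organs. With a replicate block, 6188 genes were higher, 6323 lower, 2497 above and 2406 below every organ, 6314 and 6297 higher and lower in pTKO, and 1 passed the interaction. Brain was the shallowest organ, which limits what 0 counts there can show.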

Other observations

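Some genes of neurons had more counts in heart library 1 than in heart library 2. Tubb3 had 10.7 and 2.05 CPM in these, Stmn2 8.20 and 2.89 CPM, and Syt1 0.763 and 0 CPM. Brain held 1933 and 2095 CPM of Tubb3, 1124 and 1271 CPM of Stmn2, and 354 and 347 CPM of Syt1. Summed neuronal lists went both ways between heart libraries 1 and 2. The cytoskeleton list had 838 and 776 CPM and the presynaptic list 310 and 278 CPM. The postsynaptic list had 504 and 553 CPM and the channel list 636 and 698 CPM. Tubb3, Stmn2 and Syt1 were looked at after their values were seen, and the source of the heart counts was not tested.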
